A study of Mus musculus with 30 samples.

Results

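Unstimulated hematopoietic stem cells (HSCs) were compared with unstimulated multipotent progenitors (MPPs), both sorted from the bone marrow of C57BL/6 mice that had received phosphate-buffered saline (PBS). The comparison rests on 9 of the 30 samples of the series, 7 HSC libraries and 2 MPP libraries, chosen by their PBS label, and on 21920 of the 55471 genes in the count tables, namely the protein-coding genes of the nucleus. Each library is a pool of 4 mice, per the series' design text, so a p-value here measures the spread between pools. The series was made to study MTP10-HDL, a lipoprotein nanoparticle that carries a muramyl peptide. Its MTP10-HDL libraries, 6 of HSCs and 3 of MPPs, were used as a second, separate set in which the same difference was computed. The labels give 3 injections in 5 days for the MPP samples, and no schedule for the HSC samples. They also give no surface phenotype for either gate, and neither age nor sex. The ATAC-seq samples of the series were not analysed here.

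The 2 cell types were not prepared alike. Per the labels' protocols, HSC RNA was amplified as total cDNA with a NuGEN kit and read as single 50-base reads, whereas MPP RNA was poly-A selected, mixed with insect carrier RNA and made into directional libraries. All HSC libraries had one preparation and all MPP libraries the other, so for every value below the cell type and the library kit cannot be told apart. This holds for the MTP10-HDL set as well. Levels are given in CPM, which relates each count to the library's total on nuclear protein-coding genes after scaling by the trimmed mean of M values. A log2 difference is HSC over MPP throughout, so positive values are higher in HSCs.

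HSCs are the rare marrow cells that renew themselves and can rebuild all blood lineages, and most of them are out of the cell cycle at any time. MPPs are their immediate progeny. They divide more, have largely lost the capacity to renew themselves, and are classically told from HSCs by Flt3 and CD48 on their surface and by loss of CD150, the product of Slamf1. Among MPPs, some are biased to the lymphoid lineage, some to the myeloid lineage and some to megakaryocytes and red cells. The transcripts below are ordered along that path, from markers and stem cell regulators to lineage genes, the cell cycle, and growth and metabolism.

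The 7 HSC libraries held 4064155 to 7879858 counts, of which 2750047 to 5540290 fell on nuclear protein-coding genes. The 2 MPP libraries, numbered 2 and 3 in the labels, held 14691375 and 11252479 counts, with 11959146 and 9828928 on those genes. HSC libraries are numbered 1 to 7 as in the count table. Mitochondrial ribosomal RNA took 20.4% to 27.6% of counts in HSC libraries and 0.0734% and 0.165% in MPP libraries. Although they were less deep, the HSC libraries detected 15521 to 19626 protein-coding genes, and the MPP libraries 14388 and 13646. Immunoglobulin genes took 0.269% to 19.8% of counts in HSC libraries, with library 2 highest, and 12.5% and 6.20% in MPP libraries. Across protein-coding genes the 2 MPP libraries correlated at a Spearman rho of 0.980, pairs of HSC libraries at 0.884 to 0.961, and pairs of an HSC and an MPP library at 0.812 to 0.907. These correlations are across genes, which are not independent replicates.

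Of 15777 genes tested with edgeR's quasi-likelihood test, 6715 (42.6%) differed at a false discovery rate (FDR) of 0.05. That comprised 4368 higher in HSCs (27.7%) and 2347 higher in MPPs (14.9%). The excess on the HSC side lay in genes of low level. The filter kept a gene that reached its cutoff in any 2 libraries, the size of the smaller group. A low gene could thus enter through 2 of the 7 HSC libraries, but needed both MPP libraries to enter on that side. The part of this filter in the excess was not tested. Among the 5002 genes whose higher cell type averaged 1 to 10 CPM, 48.2% were called higher in HSCs and 0.46% higher in MPPs, and their median log2 difference was 3.91. Among the 10755 genes with a mean of at least 10 CPM in 1 cell type, 18.2% were higher in HSCs and 21.6% higher in MPPs, and the median was -0.08, against 0.33 over all tested genes. With limma voom the calls were 2799 and 2902. Without MPP library 2 they were 1604 and 1341, and without MPP library 3 they were 736 and 875, in each case with a lone MPP library that is assumed to vary like the HSC libraries. Counts of calls per list without an MPP library, given below, are to be read against these totals, since calls fell over all genes. The CPM ranges of the cell types did not overlap for 23.1% of genes with HSCs higher and for 18.7% with MPPs higher. Leaving out 1 HSC library gave 3424 to 4989 calls higher in HSCs and 2022 to 2621 higher in MPPs.

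The 8 transcripts that mark these cells were examined first. Slamf1, which encodes CD150, stood at 35.8 CPM in the lowest HSC library, 58.2 in the median one and 65.9 in the highest, and at 2.60 and 2.62 CPM in the 2 MPP libraries. The groups lay far apart, with a log2 difference of 4.32 ± 0.38 (SE; edgeR adjusted p = 1.6e-06). Mecom, a transcription factor needed for HSC maintenance, ran from 136 through 263 to 312 CPM in HSCs and stood at 108 and 89.1 in MPPs, a log2 difference of 1.29 ± 0.30 (edgeR adjusted p = 0.0045). Hlf, another HSC transcription factor, overlapped between the groups in CPM, at 694, 960 and 1331 against 784 and 614, and did not pass (0.52 ± 0.24, edgeR adjusted p = 0.097).

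On the MPP side, Flt3, the receptor tyrosine kinase that marks lymphoid-primed progenitors, stood at 149, 182 and 256 CPM in the lowest, median and highest HSC library and at 877 and 972 CPM in MPPs. Every MPP value was over 3 times every HSC value, and the log2 difference was -2.28 ± 0.20 (edgeR adjusted p = 1.3e-06). Cd34, a sialomucin of progenitor surfaces that long-term HSCs of the adult mouse lack, was likewise apart, at 213, 332 and 414 CPM against 989 and 1375 (-1.90 ± 0.21, edgeR adjusted p = 1.7e-05). Cd48 overlapped, at 30.7, 62.2 and 87.5 CPM in HSCs and 75.4 and 92.3 in MPPs, and did not pass (-0.46 ± 0.32, edgeR adjusted p = 0.26).

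A pair of markers went against their usual direction. Procr, which encodes EPCR and is used to enrich HSCs, was lower in every HSC library (27.2, 34.3 and 38.1 CPM) than in MPPs (62.0 and 78.7 CPM), a log2 difference of -1.10 ± 0.24 (edgeR adjusted p = 0.0030). Mpo, the myeloperoxidase of granulocyte-monocyte progenitors, was higher in every HSC library, at 722, 1046 and 2076 CPM against 438 and 350 in MPPs (1.62 ± 0.36, edgeR adjusted p = 0.0039). Mecom (1.11, edgeR adjusted p = 0.10), Procr (-0.97, 0.084) and Mpo (1.41, 0.075) were no longer called without MPP library 3. Of the 8 markers, then, 4 passed in the direction their label predicts, 2 passed against it and 2 did not pass. Ranked within each library, 7 of the 8 did not overlap between the groups, Hlf included and Cd48 excepted, where ranks of 20.6% of all tested genes lay apart with HSCs higher and of 17.6% with MPPs higher. An exact 2-sided permutation of the 9 libraries has 36 arrangements and cannot go below p = 0.056, the value those 7 reached.

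**Figure D1:**
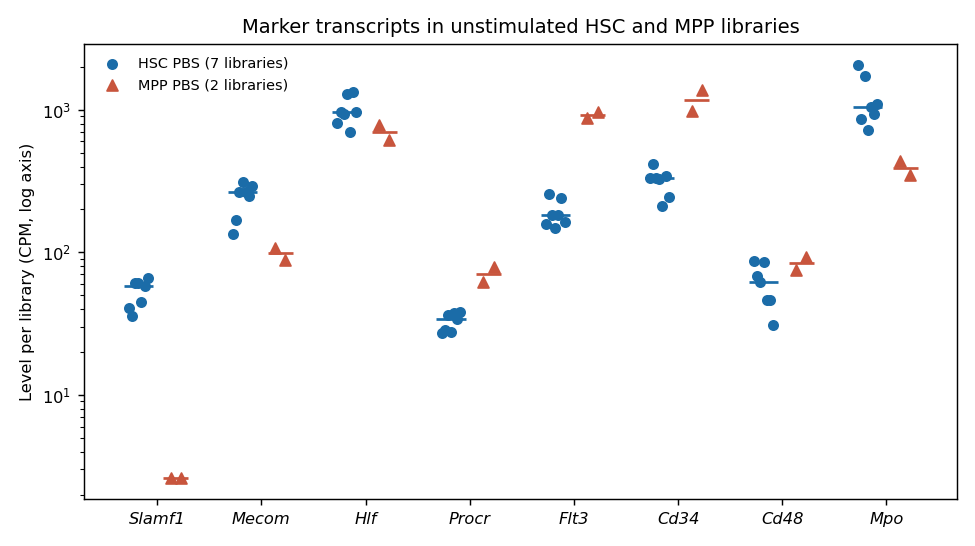
Level of the 8 marker transcripts in each PBS library, in CPM on a log axis. Circles are the 7 HSC libraries with a bar at their median, and triangles are the 2 MPP libraries with a bar at their mean. Slamf1 stands at 35.8 to 65.9 CPM in HSCs and near 2.6 CPM in MPPs, Flt3 and Cd34 are higher in MPPs without overlap, and Procr and Mpo are reversed with respect to their usual use.

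Promoter sequences are shown for 4 genes that part the cell types at the surface or by lineage: Slamf1 and Flt3, the markers with the largest differences, Ermap, a red cell adhesion protein, and Dntt, the enzyme that adds bases at antigen receptor joints. Each runs from 250 bases before to 50 bases after a start site, from RefSeq on GRCm38.p6, printed 5′ to 3′ on the gene's own strand. Distances are from that site, which for Ermap lies inside the gene's span (outer end at 119190013). Capitals mark matches, on either strand, to a GATA motif (AGATAA or TGATAA), a RUNX motif (TGTGGT) or an ETS motif (GGAAGT), and no 2 matches overlap. The windows lie at chr1:171766882-171767181 (plus strand, Slamf1), chr4:119189946-119190245 (minus, Ermap), chr5:147400440-147400739 (minus, Flt3) and chr19:41029025-41029324 (plus, Dntt).
Slamf1: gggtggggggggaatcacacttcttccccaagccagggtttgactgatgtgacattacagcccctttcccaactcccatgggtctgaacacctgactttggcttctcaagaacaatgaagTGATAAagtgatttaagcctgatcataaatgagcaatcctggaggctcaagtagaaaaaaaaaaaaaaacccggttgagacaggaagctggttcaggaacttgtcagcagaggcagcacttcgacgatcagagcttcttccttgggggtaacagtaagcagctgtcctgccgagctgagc
Ermap: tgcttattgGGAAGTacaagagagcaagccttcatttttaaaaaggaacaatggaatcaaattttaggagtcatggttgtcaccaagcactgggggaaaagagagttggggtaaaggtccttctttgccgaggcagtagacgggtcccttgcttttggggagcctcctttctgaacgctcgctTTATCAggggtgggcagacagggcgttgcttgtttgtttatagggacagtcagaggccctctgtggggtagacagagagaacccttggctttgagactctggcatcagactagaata
Flt3: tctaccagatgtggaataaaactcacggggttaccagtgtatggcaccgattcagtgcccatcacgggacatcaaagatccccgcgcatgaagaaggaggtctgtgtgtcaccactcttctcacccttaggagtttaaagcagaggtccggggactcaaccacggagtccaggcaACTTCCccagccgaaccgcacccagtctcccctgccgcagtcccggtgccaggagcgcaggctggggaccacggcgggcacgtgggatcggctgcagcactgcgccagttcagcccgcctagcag
Dntt: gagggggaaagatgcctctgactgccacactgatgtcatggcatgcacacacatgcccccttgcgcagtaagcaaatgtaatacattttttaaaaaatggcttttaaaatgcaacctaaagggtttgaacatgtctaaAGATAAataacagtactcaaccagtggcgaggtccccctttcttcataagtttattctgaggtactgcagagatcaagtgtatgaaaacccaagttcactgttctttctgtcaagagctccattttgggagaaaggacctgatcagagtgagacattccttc
The Slamf1 window holds 1 GATA match, beginning 130 bases before the start site. Ermap has 1 GATA match, 67 bases before it, and 1 ETS match, 241 bases before it. Flt3 has 1 ETS match at 75 bases and Dntt 1 GATA match at 112 bases, and none of the 4 windows holds a RUNX match. Over all 32851 promoter windows of this length in the table, 18.6% hold the GATA motif, 16.8% the RUNX motif and 23.8% the ETS motif. A match is a stretch of letters and not a measured binding site.

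Among 35 HSC identity factors, all tested, 12 were higher in HSCs (34.3%), 6 were higher in MPPs (17.1%) and 17 did not pass, against 27.7% and 14.9% of all tested genes. The list's median log2 difference was 0.65, and 0.67 over its 32 members of at least 10 CPM, where the median of all genes was -0.08. Of those 32, 37.5% were higher in HSCs and 18.8% in MPPs, against 18.2% and 21.6% of all genes at that level. Runx1, a master regulator of definitive blood formation, stood at 347, 469 and 512 CPM in HSCs and 126 and 114 in MPPs (1.88 ± 0.23, edgeR adjusted p = 4.1e-05). Mllt3, which sustains HSC self-renewal in culture, behaved alike, at 228, 298 and 358 CPM against 82.4 and 87.9 (1.84 ± 0.23, edgeR adjusted p = 4.2e-05). Neither overlapped between the groups.

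The corepressor gene Runx1t1 was low in MPPs, at 0.539 and 0.455 CPM, and at 10.3 to 26.6 CPM in HSCs (log2 difference 5.18). Hoxb5, used as a reporter of long-term HSCs, stood at 6.03, 11.02 and 18.3 CPM in HSCs and 1.08 and 2.16 CPM in MPPs (2.76 ± 0.67, edgeR adjusted p = 0.0060). It was not called without MPP library 2 (2.28, edgeR adjusted p = 0.083). On the other side, Hoxa9 stood at 47.5, 81.2 and 135 CPM in HSCs and 274 and 311 in MPPs (-1.81), and the homeobox gene Nkx2-3 at 14.1, 16.8 and 20.2 against 48.2 and 94.9 CPM (-2.10). Bmi1, a polycomb protein that HSC self-renewal depends on, was also higher in MPPs (-1.08 ± 0.26, edgeR adjusted p = 0.0062), though not without MPP library 3 (-1.07, 0.065). Gata2, at 161, 220 and 394 CPM in HSCs and 120 and 176 in MPPs, did not pass (0.75 ± 0.34, edgeR adjusted p = 0.086). The list held 8 genes higher in HSCs and 4 higher in MPPs without MPP library 2, and 6 and 2 without MPP library 3.

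Of 35 HSC surface proteins and niche receptors, 13 were higher in HSCs (37.1%), 3 higher in MPPs (8.57%), 19 not called and a median of 0.68. Among the 32 of at least 10 CPM the shares were 40.6% and 9.38%, against 18.2% and 21.6% of all genes at that level. Vwf, the clotting protein that marks platelet-biased HSCs, stood at 48.0, 123 and 153 CPM in HSCs and 6.64 and 4.67 in MPPs (4.25 ± 0.48, edgeR adjusted p = 1.8e-05). Neo1, a netrin and repulsive guidance receptor, was at 14.1, 23.1 and 36.4 CPM against 2.06 and 0.455 (4.25 ± 0.60, edgeR adjusted p = 0.00015). Clec1a, a C-type lectin, was at 24.1, 39.8 and 82.4 CPM against 3.59 and 3.98 (3.53), and the integrin Itgb3 at 76.7, 103 and 168 against 21.99 and 4.89 (3.07). All 4, like Slamf1, were lower in both MPP libraries than in any HSC library.

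Other receptors that define stem cell gates did not pass. Kit stood at 524, 842 and 1034 CPM in HSCs and 685 and 632 in MPPs (0.28 ± 0.23, edgeR adjusted p = 0.34). Fgd5, a reporter gene of HSCs, was at 23.8, 51.8 and 90.2 CPM against 46.0 and 37.9 (0.38 ± 0.38, edgeR adjusted p = 0.44). Ly6a, which encodes Sca-1, ranged from 61.6 through 93.4 to 524 CPM in HSCs, the highest value being that of library 2, against 245 and 208 CPM in MPPs (-0.49 ± 0.61, edgeR adjusted p = 0.54). Without HSC library 2, Ly6a was higher in MPPs (-1.15, edgeR adjusted p = 0.017). The list held 6 genes higher in HSCs without MPP library 2 and 6 without library 3.

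Of 33 HSC effector genes, which act downstream of the identity factors, 10 were higher in HSCs (30.3%) and 5 higher in MPPs (15.2%). These shares are near the 27.7% and 14.9% of all tested genes. Among the 28 of at least 10 CPM they were 25.0% and 17.9%, against 18.2% and 21.6% of all genes at that level. The retinoic acid enzymes stood out within the list. Aldh1a1, which makes retinoic acid, was at 39.1, 48.8 and 95.3 CPM in HSCs and 8.80 and 7.63 in MPPs (2.89), and Cyp26b1, which degrades it, at 13.7, 24.9 and 34.7 against 1.71 in both MPP libraries (3.85). Ltb, the lymphotoxin subunit, went the other way, at 3.56, 5.77 and 20.1 CPM in HSCs and 81.4 and 112 in MPPs (-3.53). Cdkn1c, the p57 inhibitor of the cell cycle, overlapped at 6.48 to 19.7 CPM against 9.52 and 13.1 and did not pass (0.30 ± 0.47, edgeR adjusted p = 0.63). The counts were 5 and 4 without MPP library 2, with a median below 0 (-0.07), and 4 and 3 without MPP library 3.

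**Figure D2:**
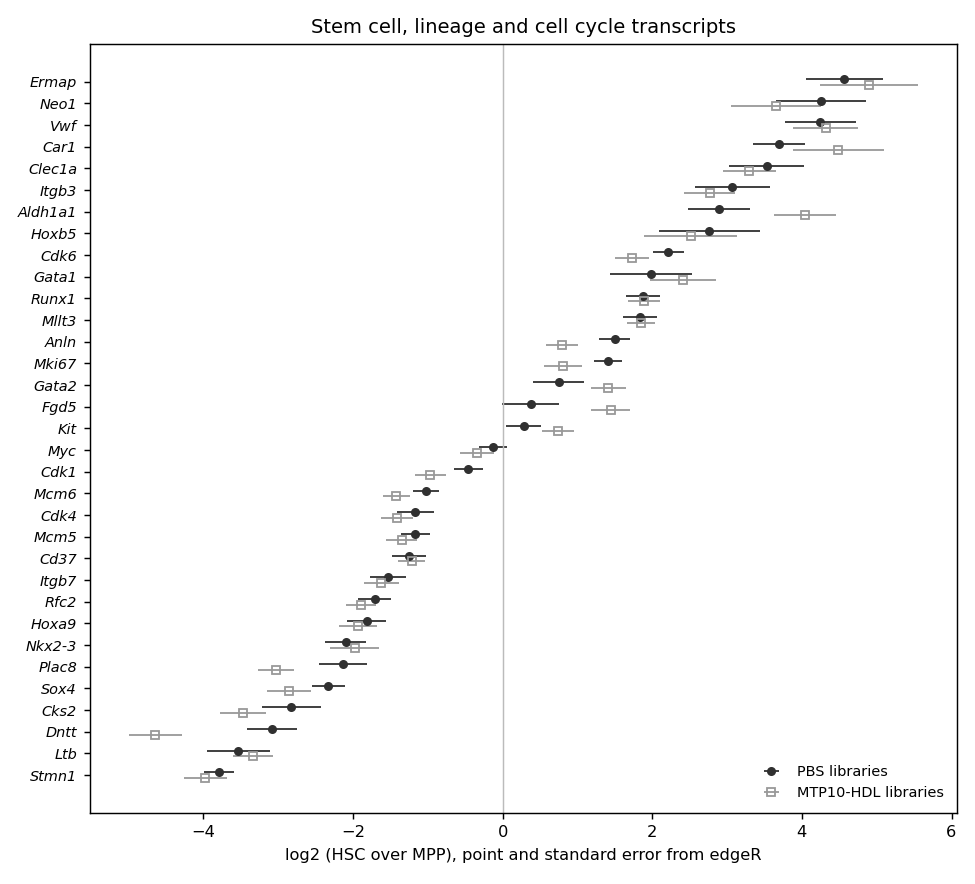
Log2 difference, HSC over MPP, of 33 stem cell, lineage and cell cycle transcripts, with its standard error from edgeR. Filled circles are the PBS libraries and open squares the MTP10-HDL libraries, fitted apart. Ermap, Neo1 and Vwf lie above 4 in the PBS libraries, and Stmn1, Ltb and Dntt below -3.

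Megakaryocyte and erythroid genes were more often higher in HSCs than in MPPs. Of 31 tested members, 13 were higher in HSCs (41.9%), 1 was higher in MPPs (3.23%) and 17 did not pass, with a median of 0.98. Among its 28 members of at least 10 CPM the shares were 42.9% and 3.57%, against 18.2% and 21.6% of all genes at that level. Car1, a carbonic anhydrase of early erythroid progenitors, stood at 145, 202 and 325 CPM in HSCs and 15.9 and 18.6 CPM in MPPs (3.69 ± 0.35, edgeR adjusted p = 3.1e-06). Ermap, whose promoter is printed above, was at 86.1, 198 and 274 CPM against 11.8 and 3.98 (4.57 ± 0.51, edgeR adjusted p = 1.7e-05). Nfia, a transcription factor of the erythroid fate, was at 110, 165 and 211 CPM against 33.04 and 49.97 (1.96). All 7 HSC libraries exceeded both MPP libraries for each of the 3.

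Gata1, the master factor of both lineages, stood at 9.45, 16.6 and 40.6 CPM in HSCs and 4.94 and 5.58 CPM in MPPs (1.98 ± 0.55, edgeR adjusted p = 0.012). Gata1 was not called without MPP library 2 (1.84, edgeR adjusted p = 0.11) or library 3 (2.02, 0.10). Itga2b, which encodes CD41, overlapped at 22.4 to 73.0 CPM against 27.4 and 30.9 (0.80 ± 0.39, edgeR adjusted p = 0.11), and passed without HSC library 2 (0.93, 0.043). The 1 member higher in MPPs was Nfe2, a factor of late platelet formation (-1.29). Of the globins, Hbb-bs stood at 2.91 to 103 CPM in HSCs and 10.8 to 52.5 in MPPs (0.20, edgeR adjusted p = 0.87), and Hbb-bt at 4.53 to 69.0 against 29.6 to 31.8 (-0.19, 0.83). The list held 5 genes higher in HSCs and 1 higher in MPPs both without MPP library 2 and without library 3. Markers of erythroblasts, which share members with this list, were higher in HSCs for 10 of 16, with summed levels of 258 to 1001 CPM against 147 and 177, and basophil and mast cell markers for 5 of 8. Their part in the list's values was not tested.

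Of 28 lymphoid genes, 6 were higher in MPPs (21.4%), 3 were higher in HSCs (10.7%) and 19 were not called, with a median of -0.20. Among the 25 of at least 10 CPM the share higher in MPPs was 24.0%, near the 21.6% of all genes at that level. Dntt had the largest difference, at 54.0, 75.5 and 193 CPM in HSCs and 636 and 887 CPM in MPPs (-3.08 ± 0.34, edgeR adjusted p = 1.4e-05). Its highest HSC value, in library 2, stood apart from the next, 94.7 CPM, and was still far below either MPP value. Sox4, a factor of early B and T cell development, was at 95.3, 161 and 182 CPM against 595 and 899 (-2.33 ± 0.22, edgeR adjusted p = 2.9e-06), and the kinase Lck was also higher in MPPs (-1.98). Flt3 was also among the 6, with the factor Tcf3 (-0.91) and the DNA repair gene Xrcc6 (-1.19). Tcf3 was not called without MPP library 2 (-0.80, edgeR adjusted p = 0.062).

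Il7r, the interleukin-7 receptor, overlapped at 13.9, 27.0 and 89.4 CPM against 41.1 and 42.1 CPM and did not pass (-0.19 ± 0.49, edgeR adjusted p = 0.78). On the HSC side stood the transcription factors Foxo1 (0.69), Ikzf2 (1.16) and Rel (1.12). Foxo1 was not called without MPP library 2 (0.74, edgeR adjusted p = 0.10), and none of the 3 without library 3 (0.53, 0.89 and 0.95, at 0.22, 0.079 and 0.075). Among 29 surface markers of MPPs, 6 were higher in MPPs (20.7%) and 2 in HSCs (6.90%), with a median of -0.36. All 29 reached 10 CPM, so the share higher in MPPs was also near that background. Beyond Flt3 and Cd34 these were the integrin Itgb7, at 25.9, 30.9 and 45.7 CPM against 94.4 and 97.7 (-1.53), the tetraspanin Cd37, at 66.6, 102 and 140 against 268 and 218 (-1.25), Cd52 (-2.02) and Emb (-1.02). Cd27, a receptor of the tumour necrosis factor family, overlapped, at 139 to 272 CPM against 183 and 233, and did not pass (-0.20 ± 0.24, edgeR adjusted p = 0.52). The 2 higher in HSCs were Csf1r, described below, and the integrin Itga4 (1.00, and 0.59 with an edgeR adjusted p of 0.15 without MPP library 3). Cd52 was not called without MPP library 2 (-2.14, edgeR adjusted p = 0.064) or 3 (-2.05, 0.092), or with DESeq2 (adjusted p = 0.051). Without MPP library 2, 5 lymphoid genes and 5 surface markers were higher in MPPs, and without library 3 the numbers were 6 and 5.

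Of 34 myeloid genes, 8 were higher in HSCs and 8 higher in MPPs (23.5% each), with a median of 0.06. Over all tested genes the shares were 27.7% and 14.9%. Among the 31 members of at least 10 CPM they were 22.6% and 25.8%, against 18.2% and 21.6% of all genes at that level. Plac8 was higher in MPPs, at 66.9, 88.2 and 209 CPM in HSCs and 328 and 577 CPM in MPPs (-2.13), and so were the chaperone Calr, at 250, 474 and 595 against 1564 and 1558 (-1.84), and the transcription factors Spi1 and Gfi1 (-0.92 and -1.07). Neither factor was called without MPP library 3 (-0.49 and -1.03, edgeR adjusted p = 0.28 and 0.14), nor Gfi1 without library 2 (-1.22, 0.071). Cebpa, the master factor of granulocytes, stood at 5.12, 22.02 and 35.6 CPM against 36.2 and 43.3, without overlap, and did not pass (-0.77 ± 0.46, edgeR adjusted p = 0.19). Mpo was among those higher in HSCs. Elane, the neutrophil elastase, stood at 120, 224 and 715 CPM in HSCs and 129 and 71.4 in MPPs (1.73 ± 0.54, edgeR adjusted p = 0.021), with HSC library 4 inside the MPP range. Csf1r, the M-CSF receptor and a member of the MPP surface list, was at 37.8, 71.0 and 280 CPM against 25.3 and 24.0 (2.07 ± 0.63, edgeR adjusted p = 0.019).

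The highest HSC values of these myeloid genes were in libraries that also carried the most transcripts of mature myeloid cells. Neutrophil markers summed to 3435, 2924 and 6318 CPM in HSC libraries 1, 3 and 5, to 222 in library 4 and 279 in library 7, and to 1217 and 950 in the MPP libraries. Monocyte and macrophage markers summed to 4783 and 3170 CPM in HSC libraries 1 and 3, to 380 in library 7, and to 275 and 314 in the MPP libraries. Their part in the myeloid values was not tested. Mpo stood at 722 and 1094 CPM in HSC libraries 4 and 7, above both MPP libraries. In these 2 libraries the neutrophil markers were below both MPP libraries, and the monocyte and macrophage markers, at 662 and 380 CPM, were above both. Without HSC libraries 1, 3 and 5, 6 myeloid genes were higher in HSCs and 12 higher in MPPs, and the median was -0.62. Cebpa was among the 12 (-1.34, edgeR adjusted p = 0.038). Those libraries had the highest neutrophil sums and were chosen after the data were seen. The shift therefore does not test the part of mature cells. Elane lost its call without MPP library 2 (2.15, edgeR adjusted p = 0.062) or 3 (1.30, 0.20), and Csf1r likewise (2.05, 0.12, and 1.97, 0.14). The list held 2 genes higher in HSCs and 5 higher in MPPs without MPP library 2, and 3 calls, each higher in MPPs, without library 3.

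**Figure D3:**
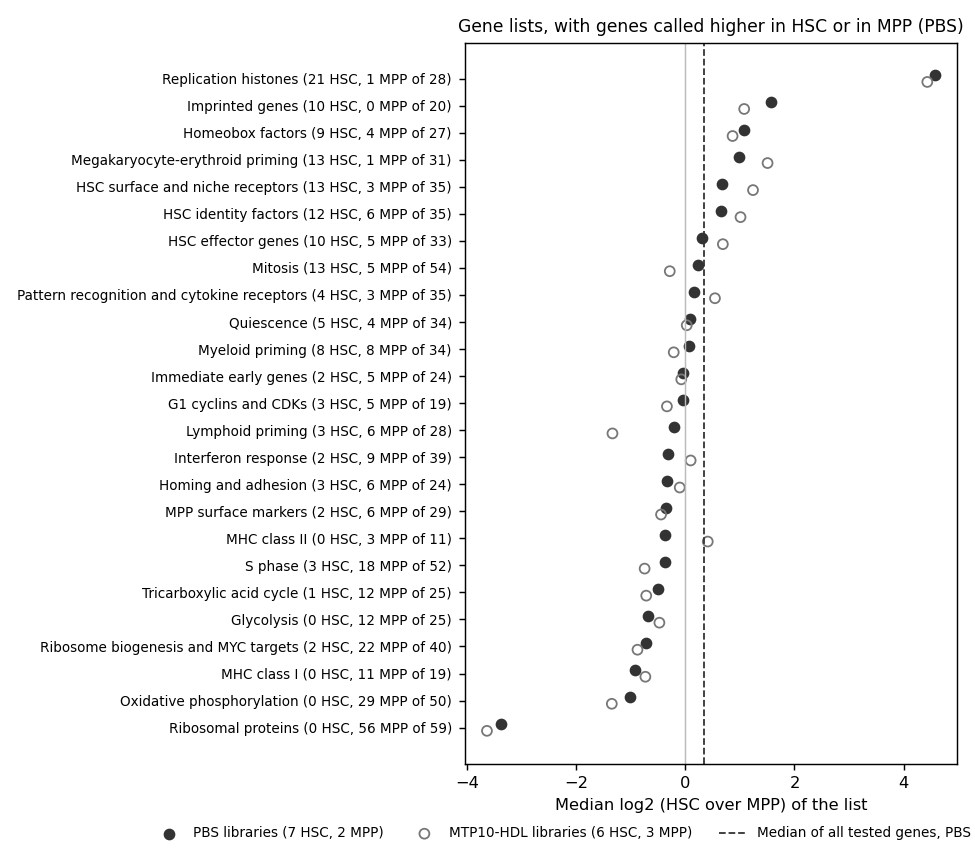
Median log2 difference, HSC over MPP, of 25 gene lists, in the PBS libraries (filled) and the MTP10-HDL libraries (open). The labels give how many members were called higher in HSCs and in MPPs of those tested in the PBS libraries, and the dashed line is the median of all tested genes, 0.33. Replication histones (4.58) and ribosomal proteins (-3.38) lie at the ends, and the megakaryocyte-erythroid list (0.98) stands above the lymphoid list (-0.20).

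The homeobox factors were divided by member. Of 27 tested, 9 were higher in HSCs (33.3%) and 4 higher in MPPs (14.8%), near the 27.7% and 14.9% of all tested genes. The 4 were Hoxa7, Hoxa9, Hoxa10 and Hoxb4, of which Hoxa10 stood at 6.97, 11.3 and 16.4 CPM in HSCs and 37.6 and 34.3 CPM in MPPs (-1.70). Hoxa7 (-1.37) and Hoxb4 (-1.002) lost their calls without MPP library 3 (-1.20 and -0.97, edgeR adjusted p = 0.098 and 0.18), and Hoxb4 also without library 2 (-1.14, 0.098). Those higher in HSCs included Hoxb5, described above. They also included 4 genes without a count in either MPP library. Of these, Meis2 averaged 10.5 CPM in HSCs, which is at least 69.9-fold above the level of 3 counts over both MPP libraries together. Over the 13 members of at least 10 CPM the median was -0.33, against 1.08 over all 27, so the list's direction depends on its low members. The counts were 2 and 3 without MPP library 2, and 3 and 2 without library 3.

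Imprinted genes, which form a network that restrains growth in HSCs, were higher in HSCs for 10 of 20 tested (50.0%, against 27.7% of all tested genes). By edgeR, 0 were higher in MPPs, against 14.9% of all tested genes. At an unadjusted p under 0.05, and with DESeq2 or limma voom, the number higher in MPPs was also 0. Grb10, an adaptor that dampens insulin signalling, stood at 97.8, 158 and 196 CPM in HSCs and 57.1 and 43.4 in MPPs (1.55 ± 0.28, edgeR adjusted p = 0.0010). Peg3 was at 5.51, 13.8 and 21.7 CPM against 1.62 and 1.48 (3.11), and was not called without MPP library 3 (3.00, edgeR adjusted p = 0.058). Of the 10 called, 3 reached 10 CPM in a cell type, and the median over the 10 members at that level was 0.25. At that level 30.0% of the list was higher in HSCs, against 18.2% of all genes. Among all genes of 1 to 10 CPM, 48.2% were called higher in HSCs and 0.46% higher in MPPs. Much of the list's excess and its lack of MPP calls are thus shared by genes of low level. There were 7 calls without MPP library 2 and 2 without library 3.

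Cell cycle genes were examined by phase. Of 52 genes of DNA replication in S phase, 18 were higher in MPPs (34.6%) and 3 higher in HSCs (5.77%), with a median of -0.37. The list's 52 genes all reached 10 CPM, where the shares of all genes were 21.6% and 18.2%. All 6 subunits of the MCM2-7 replicative helicase were among the 18, with log2 differences of -0.59 to -1.17. Mcm5 stood at 120, 138 and 188 CPM in HSCs and 351 and 320 in MPPs (-1.17 ± 0.19, edgeR adjusted p = 0.00051), and Mcm6 at 318, 342 and 456 against 698 and 779 (-1.02 ± 0.18, edgeR adjusted p = 0.00066). Rfc2, of the clamp loader, was at 46.7, 77.9 and 93.3 CPM against 232 and 248 (-1.71). Each of the 3 was higher in both MPP libraries than in any HSC library. The 3 replication genes higher in HSCs were Tyms, Orc1 and Dtl (0.73, 1.22 and 0.61), and none of these was called without MPP library 2 (edgeR adjusted p = 0.14, 0.086 and 0.15) or library 3 (0.15, 0.17 and 0.21), nor Dtl without HSC library 5 (0.051).

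Of 54 mitosis genes, 13 were higher in HSCs (24.1%) and 5 higher in MPPs (9.26%), with a median of 0.22. All 54 reached 10 CPM. Among all genes at that level the shares were 18.2% and 21.6% and the median was -0.08. The list was thus above that background on the HSC side and below it on the MPP side. Without HSC libraries 1 and 4, 10 were higher in HSCs and 10 in MPPs. Mki67, the Ki-67 proliferation antigen, stood at 1939, 2187 and 2558 CPM in HSCs and 932 and 734 CPM in MPPs (1.41 ± 0.18, edgeR adjusted p = 8.1e-05). Anln, of the contractile ring, was at 170, 196 and 228 CPM against 72.0 and 67.8 (1.497), and the centromere motor Cenpe differed by 1.54. In contrast, Cdk1, the kinase that drives entry into mitosis, stood at 79.8, 98.7 and 114 CPM in HSCs and 135 and 133 in MPPs, without overlap, and missed the threshold (-0.46 ± 0.20, edgeR adjusted p = 0.069). Stmn1, a tubulin-binding protein, was at 22.3, 27.1 and 32.9 CPM against 296 and 438 (-3.79 ± 0.20, edgeR adjusted p = 4.7e-09), and Cks2, a small partner of Cdk1, at 2.91, 4.09 and 6.47 against 32.1 and 34.8 (-2.83).

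In G1, the kinase gene Cdk6 was higher in HSCs, at 1859, 2293 and 2649 CPM against 516 and 463 in MPPs (2.22 ± 0.21, edgeR adjusted p = 2.6e-06), and its close relative Cdk4 higher in MPPs, at 140, 212 and 335 CPM against 483 and 522 (-1.17 ± 0.25, edgeR adjusted p = 0.0028). Cyclin D1 (Ccnd1) overlapped, at 19.1 to 55.4 CPM against 38.6 and 28.2 (0.14 ± 0.35, edgeR adjusted p = 0.76), and so did Myc, at 307 to 446 against 403 and 451 (-0.13 ± 0.19, edgeR adjusted p = 0.61). Of 34 quiescence genes, 5 were higher in HSCs (14.7%) and 4 in MPPs (11.8%), both below the background shares. Rb1, the retinoblastoma gene, was at 68.2, 99.7 and 138 CPM against 65.7 and 36.1 (1.00), and Foxo4 at 11.8, 14.96 and 31.6 against 57.1 and 58.9 (-1.58). Rb1 lost its call without MPP library 3 (0.57, edgeR adjusted p = 0.24). S phase genes higher in MPPs numbered 12 without MPP library 2 and 9 without library 3, mitosis genes higher in HSCs 4 and 4 and higher in MPPs 3 and 2, and calls among quiescence genes 5 and 1.

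Growth and energy genes were mostly higher in MPPs. Of 40 genes of ribosome biogenesis and MYC targets, 22 were higher in MPPs (55.0%) and 2 in HSCs (5.00%), with a median of -0.72. All 40 reached 10 CPM, and at that level 21.6% of all genes were higher in MPPs and 18.2% in HSCs. Npm1, a nucleolar chaperone, stood at 356, 541 and 675 CPM in HSCs and 1628 and 2107 in MPPs (-1.81 ± 0.20, edgeR adjusted p = 1.6e-05), and the ribosomal RNA methylase Fbl at 11.3, 18.1 and 26.8 against 90.2 and 105 (-2.45). Of 59 ribosomal protein genes, 56 were higher in MPPs (94.9%), with a median of -3.38. The number higher in HSCs was 0 by edgeR, also at an unadjusted p under 0.05, and by DESeq2 and limma voom. Rps12 stood at 42.8, 51.7 and 57.0 CPM in HSCs and 1663 and 2793 CPM in MPPs (-5.46). Their summed level was 6349 to 13510 CPM in HSC libraries and 54020 and 84000 in MPP libraries. The size was not even among them, since Rps3 overlapped between the groups at 695 to 2994 CPM against 1838 to 3003 (-0.49, edgeR adjusted p = 0.38). Ribosomal protein genes have many near-identical pseudogenes, and how the authors counted reads with several matches is not given in the sources used here, so their values are uncertain. Insect carrier RNA was added to the MPP samples only, and its part in these values was not tested.

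The background for the energy lists is that of genes of at least 10 CPM, 21.6% higher in MPPs and 18.2% in HSCs. In oxidative phosphorylation, 29 of 50 nuclear genes were higher in MPPs (58.0%), with a median of -1.02. Those higher in HSCs numbered 0 by edgeR and limma voom, and 1 by DESeq2 or at an unadjusted edgeR p under 0.05. Uqcrb, of complex III, stood at 3.88, 6.04 and 8.55 CPM in HSCs and 100 and 142 CPM in MPPs (-4.32), and Cox5b, of complex IV, at 11.98, 15.8 and 24.5 against 118 and 127 (-2.89). In glycolysis, 12 of 25 were higher in MPPs (48.0%), with a median of -0.68. Those higher in HSCs numbered 0 by edgeR, 2 at its unadjusted p under 0.05, 2 by DESeq2 and 1 by limma voom. Gapdh was at 12.96, 25.1 and 31.9 CPM against 284 and 287 (-3.63 ± 0.26, edgeR adjusted p = 1.2e-07), and Pkm, the last enzyme of the pathway, at 129, 143 and 201 against 761 and 844 (-2.38). In the tricarboxylic acid cycle, 12 of 25 were higher in MPPs (48.0%) and 1, Dlat, in HSCs, at 101, 110 and 134 CPM against 50.3 and 51.1 (1.15). Hk2, Ldha and Eno1, all of glycolysis, had differences of -0.11, -0.21 and -0.32 and did not pass. The counts higher in MPPs without MPP library 2 were 9 for ribosome biogenesis, 55 for ribosomal proteins, 22 for oxidative phosphorylation, 11 for glycolysis and 8 for the tricarboxylic acid cycle. Without library 3 they were 7, 54, 12, 9 and 4.

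Antigen presentation by MHC class I was also higher in MPPs, with 11 of 19 genes (57.9%) and a median of -0.93. All 19 reached 10 CPM, where 21.6% of all genes were higher in MPPs and 18.2% in HSCs. The number of class I genes higher in HSCs was 0 by edgeR, DESeq2 and limma voom, and at an unadjusted edgeR p under 0.05. Tap2, of the peptide transporter, stood at 24.1, 35.3 and 44.3 CPM in HSCs and 241 and 235 CPM in MPPs (-2.73 ± 0.21, edgeR adjusted p = 3.2e-07). The proteasome activator Psme2 was at 21.2, 25.7 and 34.2 CPM against 137 and 180 (-2.60), and the class Ib molecule H2-Q4 at 34.7, 59.7 and 102 against 305 and 329 (-2.36). The classical heavy chain H2-K1 and the light chain B2m did not pass (-0.20 and -0.10). H2-Q4 belongs to a family of near-identical genes, so its counts are uncertain. There were 10 class I calls without MPP library 2 and 9 without library 3.

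Interferon response genes were higher in MPPs for 9 of 39 (23.1%) and in HSCs for 2 (5.13%), with a median of -0.32. All 39 reached 10 CPM, so the share higher in MPPs was near the 21.6% of all genes at that level. The share higher in HSCs was below the 18.2% found there. Bst2 stood at 8.42, 14.9 and 27.6 CPM in HSCs and 61.6 and 97.8 in MPPs (-2.38), and the master regulator Irf7 at 11.96, 23.3 and 28.3 against 57.7 and 87.0 (-1.77). Among 35 receptors and adaptors of pattern recognition, 4 were higher in HSCs and 3 in MPPs (11.4% and 8.57%), below the background. Nod2, the sensor of muramyl peptides, was low in both cell types, with 9 to 29 counts in HSC libraries and 79 and 72 in MPP libraries, at 2.65, 3.83 and 7.61 CPM in HSCs and 7.09 and 8.20 in MPPs (-0.86 ± 0.63, edgeR adjusted p = 0.28). Myd88, the adaptor of Toll-like receptors, was higher in MPPs, at 12.5, 15.2 and 24.9 CPM against 54.6 and 61.2 (-1.74). Of 24 homing and adhesion genes, 6 were higher in MPPs (25.0%) and 3 in HSCs (12.5%). Over the 22 of at least 10 CPM the shares were 27.3% and 13.6%, against 21.6% and 18.2% of all genes at that level. Those higher in MPPs included Fut7, which builds selectin ligands, at 4.54, 12.5 and 15.2 CPM against 39.4 and 72.2 (-2.27). Selplg was also among them, at 49.1, 118 and 162 CPM against 239 and 289 (-1.25). Selplg lost its call without MPP library 3 (-1.17, edgeR adjusted p = 0.074). Genes higher in MPPs numbered 8 of the interferon list without MPP library 2 and 2 without library 3, 2 and 2 of the receptor list, and 3 and 2 of the homing list.

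Immediate early genes, which dissociation and sorting can induce, varied as much within a cell type as between them. Their summed level was 445 to 5308 CPM over the HSC libraries and 772 and 4966 CPM in MPP libraries 2 and 3. Of 24 genes, 5 were higher in MPPs and 2 in HSCs (20.8% and 8.33%). Among the 21 of at least 10 CPM, 23.8% were higher in MPPs, near the 21.6% of all genes at that level. Junb stood at 4.202, 15.3 and 63.4 CPM in HSCs and 34.0 and 221 in MPPs (-2.17), and without MPP library 3 at a difference of -0.33 (edgeR adjusted p = 0.83). With that library left out, a single gene of the list was called, and it was higher in HSCs.

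Replication-dependent histones, whose messages end in a stem-loop and mostly lack a poly-A tail, had the largest positive median of any list. Of 28 tested, 21 were higher in HSCs (75.0%) and 1 in MPPs (3.57%), with a median of 4.58, or 4.17 with the 4 genes that had no MPP count set at their lower bound. Among the 18 of at least 10 CPM the shares were 72.2% and 5.56%, against 18.2% and 21.6% of all genes at that level. H1f4 stood at 66.9, 205 and 305 CPM in HSCs and 1.62 and 0.683 CPM in MPPs (7.43 ± 0.67, edgeR adjusted p = 1.9e-06). H1f1 was at 39.8, 66.4 and 77.6 CPM against 1.98 and 4.44 (4.26). The MPP protocol selects poly-A RNA and the labels give no such step for HSC RNA. The part of this step in the histone values was not tested and cannot be told apart from cell type. The calls higher in HSCs were 18 without MPP library 2 and 16 without library 3.

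The genes with the largest differences were mostly not blood cell genes. The 10 named for the largest values higher in HSCs had no count in either MPP library. They were Muc4, Grin2b, Anks1b, Muc16, H2bc7, Zfhx4, Kcnt1, Fam186a, Cacna1f and Eln, and against a floor of 3 counts over both MPP libraries (0.151 CPM) they were at least 209-fold (Muc4) to at least 87.5-fold (Eln) higher. Muc4, a mucin, varied from 3.11 CPM in HSC library 4 through a median of 29.0 to 68.0 in library 5. Grin2b, a subunit of the NMDA receptor of neurons, ran from 3.66 through 20.2 to 39.8 CPM. With limma voom, Muc4, Anks1b and Fam186a did not pass (limma adjusted p = 0.079, 0.052 and 0.080). The highest level of 9 of the 10 was in HSC library 5 or 7, the HSC libraries with the fewest counts, and the lowest of 6 was in library 4, which has the most.

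The 10 named for the largest values higher in MPPs were 4 tubulins (Tuba3a, Tuba3b, Tubb3 and Tubb6), 3 actins (Acta1, Actc1 and Actg2), 2 ribosomal proteins (Rps29 and Rpl10l) and a subunit of the proton pump (Atp6v1e2). Acta1, the actin of skeletal muscle, stood at 0 to 1.94 CPM in HSCs and 2887 and 4989 CPM in MPPs (-12.08 ± 0.36, edgeR adjusted p = 1.8e-11), and Tubb6 at 10.4, 13.5 and 23.6 against 1986 and 3130 (-7.41). Rpl10l, a copy of Rpl10 used in testis, had no HSC count and was at least 237-fold higher in MPPs against a floor of 3 counts over the 7 HSC libraries. Actins and tubulins are among the most conserved proteins of animals, and the insect carrier RNA was added to the MPP samples only, per the labels. Reads of mouse and carrier cannot be told apart in these tables, for these genes or for the ribosomal proteins and the tubulin Tubb1.

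Markers of other marrow cells showed what each gate could also hold, although in bulk RNA fewer cells of a type and less RNA per cell cannot be told apart. Over all tested genes, 27.7% were higher in HSCs and 14.9% in MPPs. Of 17 monocyte and macrophage markers, 9 were higher in HSCs (52.9%) and 0 in MPPs, by edgeR, also at an unadjusted p under 0.05, and by DESeq2 and limma voom. Their summed level was 380 to 4783 CPM over the 7 HSC libraries and 275 and 314 CPM in the MPP libraries. Vcam1, of marrow macrophages and stroma, ran from 41.4 through 169 to 1225 CPM in HSCs and stood at 20.4 and 30.9 in MPPs (4.04), and was not called without MPP library 2 (3.72, edgeR adjusted p = 0.11) or 3 (4.30, 0.10). Of 16 neutrophil markers, 2 were higher in HSCs and 1 in MPPs (12.5% and 6.25%), and S100a8 overlapped widely, at 25.2 to 1089 CPM against 187 to 197 (0.71, edgeR adjusted p = 0.60). HSC libraries 1, 3 and 5 had the highest neutrophil sums, and without them the neutrophil median went from 1.61 to -0.33. They were chosen after the data were seen, so a lower median follows from the choice. All 9 monocyte and macrophage calls were lost without MPP library 2, and all 9 without library 3. Calls over all genes also fell in both of these fits, as given above. With limma voom 4 of the monocyte and macrophage markers were higher in HSCs.

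The next lists have the same background of 27.7% of all tested genes higher in HSCs and 14.9% in MPPs. Erythroblast markers were higher in HSCs for 10 of 16 (62.5%), and basophil and mast cell markers for 5 of 8 (62.5%). Those higher in MPPs numbered 0 in both lists by edgeR, also at an unadjusted p under 0.05, and by DESeq2 and limma voom. Rhag, of the Rhesus complex, ran from 6.40 through 47.6 to 59.6 CPM in HSCs and stood at 3.41 and 1.71 in MPPs (3.97). The summed level was 258 to 1001 CPM in HSCs and 147 and 177 CPM in MPPs, with globins overlapping as given above. Basophil and mast cell markers summed to 356 to 683 CPM against 185 and 219. Platelet and megakaryocyte markers were higher in HSCs for 5 of 14 (35.7%) and in MPPs for 1, the tubulin Tubb1 (-3.76, and -3.52 with an edgeR adjusted p of 0.074 without MPP library 3). The sums of B cell markers (219 to 2554 against 1032 and 683 CPM) and of plasma cell markers (336 to 11350 against 10410 and 5185) overlapped, and HSC library 2 was highest in both. Dendritic cell markers, which include Flt3, were at 594 to 1209 CPM against 1784 and 1815. T and NK cell markers summed to at most 135 CPM in any library, and stroma and endothelium markers to 173 to 619 against 236 and 213 CPM. Without MPP library 2 and without library 3, the erythroblast calls higher in HSCs were 4 and 3, the basophil calls 3 and 1 and the platelet calls 2 and 1. The part of these cells in the differences between HSCs and MPPs was not tested.

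**Figure D4:**
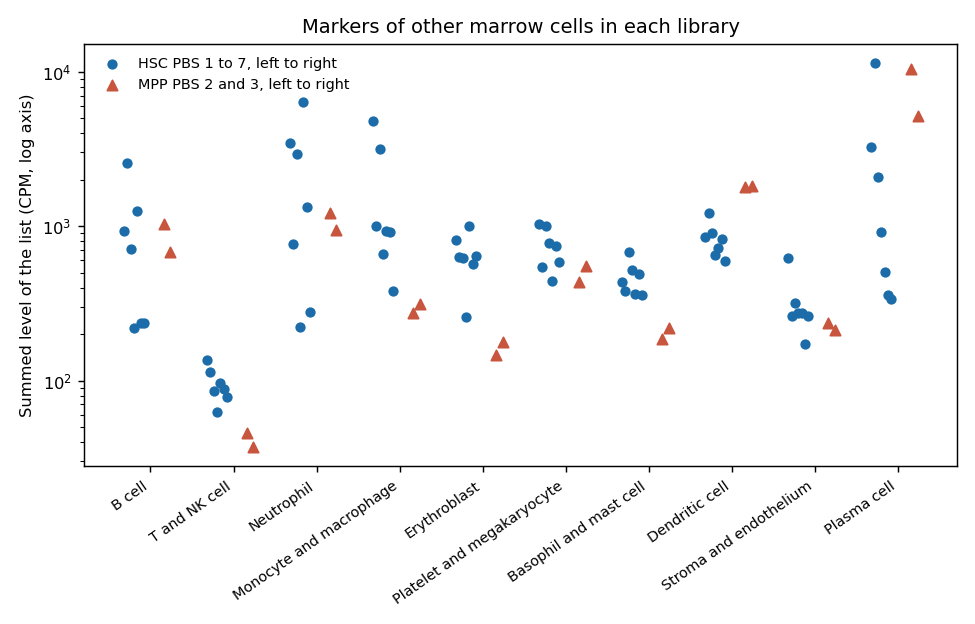
Summed level of the markers of 10 other marrow cell types in each PBS library, in CPM on a log axis. Circles are HSC libraries 1 to 7 from left to right and triangles are MPP libraries 2 and 3. Neutrophil markers span 222 to 6318 CPM over the HSC libraries, on both sides of the MPP values, whereas monocyte and macrophage markers are above both MPP libraries in all 7.

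The same difference was then computed in the MTP10-HDL libraries, which share the kits but no sample with the PBS libraries. Of 14042 genes, 54.0% differed. There were 4194 higher in HSCs (29.9%) and 3392 higher in MPPs (24.2%), a split of 55.3% on the HSC side, which moved to 71.2% with DESeq2 and 70.4% with library totals as the only scaling. Of the PBS calls tested in both sets, 2947 of 3317 higher in HSCs (88.8%) and 2155 of 2343 higher in MPPs (92.0%) were called in the same direction, and 0 in the opposite one. As shares of the MTP10-HDL calls these are 71.4% and 63.6%. Over the 13909 genes tested in both, 21.2% were called higher in HSCs in each set and 15.5% higher in MPPs.

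Among the markers, Slamf1 (5.53), Mecom (1.66), Flt3 (-2.63), Cd34 (-2.13) and Mpo (1.79) passed as in the PBS libraries. Hlf (1.07, edgeR adjusted p = 0.0015) and Cd48 (-0.93, edgeR adjusted p = 0.0048) passed here as well, in the direction of their labels. Procr did not pass (-0.29, edgeR adjusted p = 0.28). The megakaryocyte-erythroid list had 21 of 31 genes higher in HSCs (67.7%), and the lymphoid list 16 of 28 higher in MPPs (57.1%). Dntt differed by -4.64 and Il7r by -2.57 in these libraries. S phase genes were higher in MPPs for 35 of 52 (67.3%) and in HSCs for 0 by edgeR and limma voom and 1 by DESeq2 or at an unadjusted edgeR p under 0.05. Of 54 mitosis genes, 16 were higher in MPPs (29.6%) and 3 in HSCs (5.56%). Over all genes tested in this set, 24.2% were higher in MPPs and 29.9% in HSCs, the background for each list in this paragraph. The share of mitosis genes higher in MPPs was near it. Mki67 was still higher in HSCs (0.81, edgeR adjusted p = 0.013), while Cdk1 was higher in MPPs (-0.96, edgeR adjusted p = 0.0013). A joint fit of all 18 libraries tested whether the HSC over MPP difference itself changed with treatment. It called 0 of 16512 genes by edgeR at an FDR of 0.05, with a smallest adjusted p of 0.11, and 512 had an unadjusted p under 0.05, so none of these contrasts between the sets was shown to differ.

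A gene's length moved with its difference. Genes of at least 10 CPM were put in 10 equal classes by genomic span, the distance from start to end of the gene in the RefSeq table. The median log2 difference climbed with each class, from -0.81 in the shortest (0.374 to 5.11 kb) through -0.25 in the fifth to 0.82 in the longest (121 to 2390 kb). In the shortest class 43.2% of genes were called higher in MPPs and 7.41% higher in HSCs, and in the longest 4.22% and 50.7%. The MTP10-HDL libraries gave medians from -0.95 to 0.72. The part of span in the lists' differences was not tested, but each value can be set against the median of its own class.

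With that median subtracted, Slamf1 (34.1 kb) was at 4.24, Flt3 (69.7 kb) at -2.51, Cd34 at -1.66 and Mpo at 2.06, all close to or beyond their plain values, whereas Mecom (558 kb) came to 0.47 and Procr (4.35 kb) to -0.29. The medians of the megakaryocyte-erythroid list (1.27), replication histones (5.39) and ribosomal proteins (-2.67) kept their sign, and that of HSC identity factors was 0.27. Oxidative phosphorylation went from -1.02 to -0.37, S phase from -0.37 to -0.13, MHC class I from -0.93 to -0.56 and lymphoid genes from -0.20 to -0.41. MPP surface markers went from -0.36 to -0.0014, with 14 of 29 above 0, and ribosome biogenesis from -0.72 to -0.26. Of the long genes, Runx1 (1.05), Mllt3 (1.01) and Cdk6 (1.39) stayed above the median of their class, as did Vwf (3.42).

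**Figure D5:**
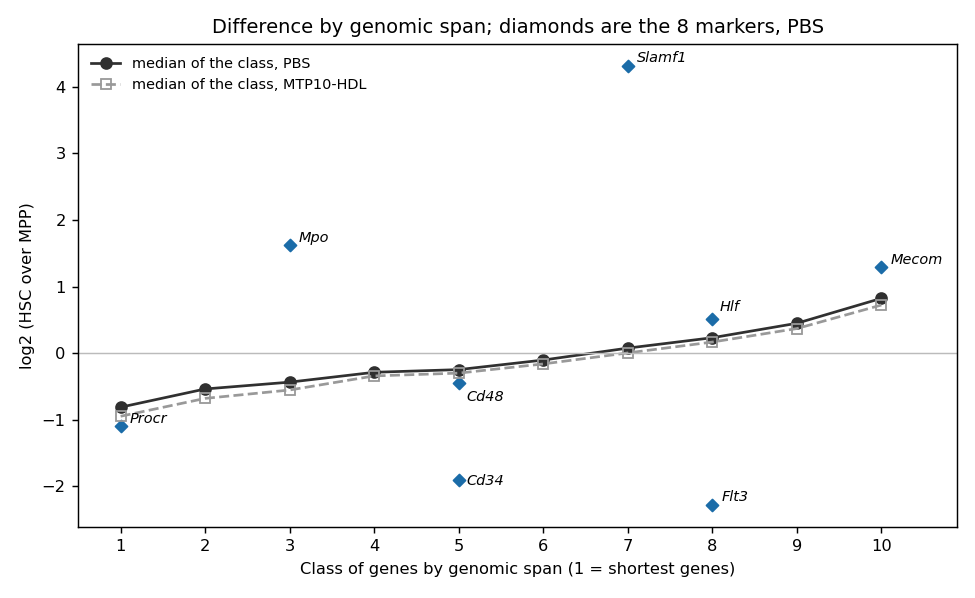
Median log2 difference, HSC over MPP, of genes of at least 10 CPM in each of 10 classes of genomic span, in the PBS libraries (filled circles) and the MTP10-HDL libraries (open squares), with the 8 markers as diamonds at their own class. The medians climb from -0.81 to 0.82 in the PBS libraries. Mecom and Procr lie near the line, and Slamf1, Flt3, Cd34 and Mpo lie far from it.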

How the data were processed

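RNA-seq of sorted marrow cells was analysed from 2 tables of read counts per gene as the authors deposited them, one for HSCs and one for MPPs. Per the submitters' processing notes, reads were demultiplexed with CASAVA 1.8.2 and aligned to mm10 with STAR 2.5.2b (HSC) or STAR 2.7.2a (MPP). The counting tool, and whether it used strand, is not given in those notes. The tables were joined by gene identifier and restricted to protein-coding genes without those of the mitochondrion. HSC samples are titled 1 to 6 and 8 and the table columns run from 1 to 7, so single HSC libraries are named by column. The headers of the HSC table write ESC before each treatment, and its columns were taken as HSC because the other table is headed MPP and all other RNA-seq samples are titled HSCs.

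The main test was edgeR 4.0.16 (R 4.3.3): trimmed mean of M values, filterByExpr, quasi-likelihood fit and Benjamini-Hochberg adjustment over all genes tested, with a threshold of 0.05. PBS and MTP10-HDL libraries were fitted apart. Alternatives were DESeq2 1.42.0, limma 3.58.1 with voom, other scalings, filters and gene sets, thinning, and libraries left out. A check used simulated counts for 14825 genes with the PBS libraries' depths. There edgeR called 9.38% of the 96 genes changed 2-fold and 0.041% of unchanged genes. Few genes were changed in that check and all had the same spread, whereas 42.6% of genes were called in the PBS libraries. The share of 2-fold differences missed in the real libraries is therefore not known from it.

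The members and the 35 gene lists were chosen with earlier results of these data known. Genes named are the 8 markers, the 10 largest differences in each direction among genes of at least 10 CPM, called and not overlapping, with the same call in the MTP10-HDL set, up to 4 called members of each list by smallest p, and 21 genes always named, and 1 gene that this rule names is not reported here. Bmi1, Nfe2, Hbb-bs, Hbb-bt, Lck, Tcf3, Ikzf2, Rel, Cd52, Emb, Spi1, Gfi1, Hoxa7, Hoxb4, Tyms, Orc1, Dtl, Cenpe, Rps3, Hk2, Ldha, Eno1, H2-K1, B2m and S100a8 were named after their values were seen. Of the list members in the tables, 24 entries fell below the filter on low counts and are in no count. Genomic spans, for 98.5% of tested genes, and promoters are from RefSeq on GRCm38.p6, and the TGATAA letters were added after the promoters were seen.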

Additional observations from a re-analysis of the deposited data

Results flagged for a closer look

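Of 145 groups of 7 HSC values examined, 14 (9.66%) held a library whose gap to the next exceeded 0.568 of the range. That threshold gives about 1 in 20 for normally distributed values. The values here were not put on a log scale and the groups share libraries, so the share was not tested against chance. HSC library 2 was high for Ly6a (523.9 CPM, next 168.6), Dntt (192.6, next 94.74), Cd52 (193.9, next 92.57) and B2m (7010, next 3988), for the summed plasma cell markers (11350 CPM, next 3243) and for the share of immunoglobulin counts (19.84%, next 7.83%). HSC library 1 was high for Csf1r (280.4 CPM, next 139.1), Plac8 (208.7, next 105.2) and Rps29 (5.53, next 3.47), and for the summed stroma and endothelium markers (619.2, next 315.9). HSC library 5 was high for Il7r (89.42 CPM, next 44.7) and Fam186a (47.3, next 18.75), library 4 for H2-Q4 (101.8, next 61.41) and library 6 for Ltb (20.13, next 9.86). Each of these is a single library standing above the other 6, and no library stood below the others in this way.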

How the results depend on the processing

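With 2 unstimulated MPP libraries, the counts of calls depended most on those. Left out one at a time over all 9 PBS libraries, the calls ranged from 1611 to 7610, of which 736 to 4989 were higher in HSCs and 875 to 2621 higher in MPPs, with the low ends reached without MPP library 3. Without MPP library 2 the totals were 2945, 1604 and 1341. All 1605 calls shared with the full set without library 3, and all 2873 without library 2, kept their direction. In the MTP10-HDL set the ranges were 6529 to 7407, 3588 to 4255 and 2553 to 3370.

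Among genes of at least 10 CPM fitted alone, 4274 PBS calls were made, 2145 of these higher in HSCs. Limma voom gave 2799 higher in HSCs, and the use of every gene class instead of protein-coding genes gave 6923. In the MTP10-HDL set, no filter gave 11577 calls with 8047 higher in HSCs, DESeq2 7583 higher in HSCs, the filter at 10 CPM 2602, and library totals alone 2225 higher in MPPs. Upper quartile scaling and library totals moved the PBS median of all genes from 0.33 to 0.46 and 0.50.

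Of the 131 genes named, 107 were called, and 82 to 109 with a library left out. Calls gained under an alternative include Cd48 without HSC libraries 1 and 4 (-0.79), and Hlf and Gata2 with upper quartile scaling (0.64 and 0.86) or library totals (0.68 and 0.92). List medians over 0.1 in size changed sign in these cases, beside those under the replicate block given below: homeobox factors at 10 CPM (-0.26), HSC effectors without MPP library 2 (-0.073; 0.49 without library 3) or without HSC libraries 1, 3 and 5 (-0.018), pattern recognition without HSC libraries 1 and 4 (-0.00293) or 1, 3 and 5 (-0.070), neutrophil markers without 1, 3 and 5 (-0.33), and MHC class II (0.063) and homing genes (0.033) after the span medians were removed. Smaller medians also changed sign: that of myeloid genes under 7 alternatives (0.062 as reported, then -0.62 to -0.050), quiescence genes under 3 (0.083, then -0.16 to -0.0062), G1 cyclins and CDKs under 6 (-0.042, then 0.021 to 0.28) and immediate early genes under 9 (-0.040, then 0.034 to 1.52). The cause was not tested. The removal of libraries 1, 3 and 5 and of span medians was chosen after seeing the data. The planned correction for coding length was not run.

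With the replicate number as a block, 6925 PBS calls were made (5870 in the MTP10-HDL set), and the medians of MHC class II and dendritic cell markers were 0.20 and 0.22. Same-numbered HSC and MPP libraries deviated together hardly at all (correlations of 0.0039 and 0.024 across genes). With 2 MPP libraries, whose deviations mirror each other, this cannot decide whether same-numbered libraries were prepared together. The HSC columns are also not tied to sample titles.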
